A study of Sus scrofa with 36 samples.

Results

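The genes described here are those of the circadian clock in the adrenal glands of growing pigs: ARNTL, CLOCK, NPAS2, PER2, PER3, CRY1, CRY2, NR1D1, NR1D2 and DBP. Their probes were found by gene name and not by measured values, though earlier results of these data were known when the genes were picked. Of the 10 genes, 8 had a named probe among the 45348 probes of the authors' table, which held named probes for 10012 genes. These 8 genes were measured by 12 probes, 3 for ARNTL, 2 each for CRY1 and CRY2 and 1 each for NPAS2, PER2, PER3, NR1D1 and NR1D2. A second NR1D1 probe was on the array but not in the table, and it was well above background on 1 of 36 arrays. CLOCK and DBP had no probe with their name and have no value here. Each of the 12 probes in the table, which the authors had already filtered, was well above background on all 36 arrays and none was saturated. Where a gene had several probes, its value is that of the brightest one (highest mean over all arrays), and levels were not compared between probes.

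The circadian clock is a feedback loop that runs in nearly every cell. ARNTL (also called BMAL1) pairs with CLOCK or with its relative NPAS2, and the pair switches on the PER and CRY genes, whose proteins return to the nucleus and repress the pair. The same pair switches on NR1D1 and NR1D2 (REV-ERB alpha and beta), nuclear receptors that repress ARNTL, which forms a second loop. DBP is an output of the clock. In the adrenal cortex the clock is known for setting the daily rhythm of the response to ACTH and of glucocorticoid secretion, and glucocorticoids in turn reset clocks in other tissues. A gene of this loop moves up and down over the day, so a level measured once in each animal depends on the hour of sampling.

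The study asked how ambient temperature changes gene expression, and the labels also give the breed. Total RNA from ground adrenal glands of 36 castrated male pigs was hybridised to 1-colour (Cy3) arrays, one pig to an array, in 6 groups of 6. The breeds were Creole, Large White and F1, the cross of Large White and Creole (called F1 cross here), with 12 pigs each. TN pigs (thermoneutral) were kept at 24 °C and slaughtered before the room was warmed, and HS pigs (heat stress) were slaughtered after 4 or 5 days of warming by the study's methods (5 by the labels), with 18 pigs on each side. The samples' temperature label gives 30 °C for HS, whereas the growth protocol and the study's methods give 32 °C. All pigs had entered the climatic room at 11 weeks of age, ate freely and lived under the same fixed schedule of artificial light. TN and HS pigs were slaughtered on different days, so day and temperature cannot be told apart, the HS pigs of 4 and of 5 days are not told apart by the labels, and the clock hour of sampling is not given in the sources used here. Pigs of a breed shared litters and pens, which the labels do not tie to arrays, so the p-values treat littermates as independent. The glands were sampled whole, and the steroid-producing cells of the cortex and the chromaffin cells of the medulla were both present: all 9 measured cortex markers and all 5 measured medulla markers were well above background on every array, while CYP11B1, CYP11B2 and TH had no named probe.

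Values are log2 intensities after quantile normalization by the authors. The array medians lay between 8.52 and 8.53, correlations between arrays were 0.982 to 0.996, and 42437 to 48061 probes per array were well above background. As a check of the temperature labels, each pig was placed on a scale from the TN mean (0) to the HS mean (1) over the 200 probes that best separated TN from HS in the other 35 pigs. On that scale 31 of 36 pigs lay nearer their own mean. The exceptions among HS pigs were Large White HS 5 (-0.08) and Creole HS 6 (0.23), and among TN pigs Creole TN 4 (0.56), Large White TN 4 (0.59) and F1 cross TN 6 (0.68). No count of clock genes past the threshold changed when any 1 of these pigs was left out.

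The probes show what was read for the genes that the results turn on. Those for ARNTL, the activator, for NR1D1, its repressor, and the dimmer CRY2 probe, which behaved unlike the other CRY2 probe, are 60 bases long and printed whole, 5′ to 3′, as the array's annotation gives them.
ARNTL: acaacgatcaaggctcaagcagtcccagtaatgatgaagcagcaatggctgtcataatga
NR1D1: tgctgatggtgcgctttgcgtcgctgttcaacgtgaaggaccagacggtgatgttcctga
CRY2, dimmer probe: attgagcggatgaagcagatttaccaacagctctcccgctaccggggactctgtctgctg

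The first 30 bases are given for the NR1D2 probe, whose level ran opposite to that of ARNTL, for the CRY1 probes, which carried the difference between breeds, and for the brighter CRY2 probe.
NR1D2: ggataatatcttcatgtttctgaaaagtaa
CRY1, brighter probe: ccagtatcatgtgttaagttcttgtttccc
CRY1, dimmer probe: caggagaaatactgttgcagctgaaattgg
CRY2, brighter probe: aatagaggagtgataggatcctagctggga

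Probes of different clock genes shared at most 10 consecutive bases and probes of 1 gene at most 7. In the pig genome (Sscrofa11.1, RefSeq) the genes lie apart from each other. ARNTL (chr2:45895637-46025174) and CRY2 (chr2:16587101-16620380) share a chromosome, while CRY1 is at chr5:13275265-13429566, NPAS2 at chr3:53298805-53490375, PER2 at chr15:137793419-137837854, PER3 at chr6:68487634-68548718, NR1D1 at chr12:22263549-22274131 and NR1D2 at chr13:10756954-10791219.

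After 4 or 5 days of heat, none of the 8 measured clock genes differed between HS and TN pigs by the test used. Over all probes, 0.911% passed the threshold in this comparison, 0.41% higher and 0.501% lower in HS (limma, Benjamini-Hochberg adjusted p under 0.05, breed and temperature in the model). Of the 8 genes, 0 passed, and 0 had an unadjusted p under 0.05, where 6121 of the 45348 probes did. The estimates were higher in HS for 4 genes and lower for 4, with a median log2 difference of -0.0034 and a median size of 0.08, against 0.05 over all probes. The genes follow by role.

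ARNTL is the one activator that the loop cannot replace. In the TN groups its lowest, median and highest log2 levels were 10.35, 11.32 and 11.56 in Creole, 10.70, 11.25 and 11.49 in F1 cross, and 11.02, 11.40 and 11.73 in Large White. In the HS groups they were 10.42, 11.04 and 11.63 in Creole, 10.94, 11.18 and 11.48 in F1 cross, and 10.34, 11.23 and 11.35 in Large White. All 6 groups overlapped, and the lowest pigs of Creole TN, Creole HS and Large White HS lay at about the same low level. HS minus TN was -0.14 ± 0.11 (SE, 18 against 18 pigs), with a 95% interval from -0.36 to 0.08 (limma, Benjamini-Hochberg adjusted p = 0.613). The other ARNTL probes gave -0.13 and -0.04, neither of them past the threshold. Without Large White HS 5, the lowest pig, the ARNTL difference was -0.09, and over the 54 alternatives run it lay between -0.19 and -0.01, with adjusted p from 0.405 to 0.983 (limma).

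NPAS2 takes the place of CLOCK as partner of ARNTL in some tissues. Its TN levels (lowest, median, highest) were 9.30, 9.49 and 9.87 in Creole, 9.26, 9.55 and 11.15 in F1 cross, and 9.16, 9.45 and 9.79 in Large White. Its HS levels were 9.19, 9.53 and 9.63 in Creole, 9.34, 9.55 and 9.69 in F1 cross, and 9.34, 9.44 and 9.53 in Large White. The medians of the 6 groups were close to each other, and the high end of F1 cross TN came from 2 pigs. F1 cross TN 3 (11.15) and F1 cross TN 4 (11.095) stood 1.23 above the next pig, Creole TN 5, and the other 34 pigs lay between 9.16 and 9.87. Both arrays were on slide 4 of the 5 slides, whose other 6 arrays read 9.43 to 9.87, and both correlated with the rest of their group as other arrays did (mean correlation over all probes 0.991 and 0.992, lowest over all pigs 0.987). On the temperature scale given above (TN mean 0, HS mean 1), F1 cross TN 3 lay at -0.84, the lowest of the 36 pigs, and F1 cross TN 4 at -0.13. Nothing in the labels sets these 2 pigs apart from the others of their group, and NPAS2 had no second probe.

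The NPAS2 differences depended on these 2 pigs. HS minus TN was -0.20 ± 0.13 (SE) with all 36 pigs, with an interval from -0.46 to 0.06 (limma, Benjamini-Hochberg adjusted p = 0.526), and -0.02 ± 0.06 without the 2 pigs. Within the F1 cross it was -0.48 ± 0.22 with them (unadjusted p = 0.0325, adjusted p = 0.354, limma) and 0.07 ± 0.12 without them. The spread of NPAS2 within TN groups was 0.53 (SD, log2), against 0.15 within HS groups and 0.21 within TN groups without the 2 pigs. Over all probes, 107 passed between HS and TN without these 2 pigs, against 413 with them. No other pair of pigs was left out, so this fall cannot be set against that from a smaller set alone.

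PER2 and PER3 are repressors that bind the CRY proteins. The lowest, median and highest PER2 levels were 9.28, 9.56 and 10.101 over the 18 TN pigs and 9.36, 9.64 and 10.21 over the 18 HS pigs. For PER3 they were 6.36, 6.70 and 7.36 in TN and 6.40, 6.75 and 7.12 in HS. TN and HS overlapped over nearly the whole range for both genes. HS minus TN was 0.10 ± 0.08 (SE) for PER2 (95% interval -0.07 to 0.26, adjusted p = 0.664, limma) and 0.0018 ± 0.075 for PER3 (-0.15 to 0.15, adjusted p = 0.996). The largest PER2 difference within a breed was in Large White, at 0.26 ± 0.14 (unadjusted p = 0.0789, adjusted p = 0.786, limma). There the medians were 9.44 in TN and 9.79 in HS, and the groups overlapped. PER2 levels also differed by slide. They were 9.28 to 9.70 on slide 1, 9.36 to 9.62 on slide 2 and 9.41 to 9.69 on slide 5. On slides 3 and 4 they were 9.63 to 10.15 and 9.65 to 10.21. With slide as a fixed block, PER2 had an adjusted p of 0.277 for HS minus TN over all pigs (limma), the lowest over 54 alternatives.

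CRY1 and CRY2 are the stronger repressors of the loop. CRY1 levels were 9.99, 10.66 and 11.15 (lowest, median, highest) in TN and 10.30, 10.71 and 11.33 in HS. The temperature groups overlapped, and HS minus TN was 0.08 ± 0.08 (SE; 95% interval -0.07 to 0.24, adjusted p = 0.706, limma). By its brighter probe CRY2 was the steadiest gene of the loop, with 7.14, 7.28 and 7.45 in TN and 7.13, 7.28 and 7.53 in HS. Its difference was 0.0017 ± 0.036 (95% interval -0.07 to 0.07, adjusted p = 0.991, limma), the narrowest interval among the 8 genes.

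The CRY2 probes did not follow each other. After the group means were taken out, their correlation over 36 pigs was r = 0.09 (rho = -0.09). The dimmer probe read 6.13, 6.55 and 6.80 (lowest, median, highest) in TN and 6.40, 6.54 and 7.54 in HS, with 3 HS pigs above every TN pig: Creole HS 4 (7.54), F1 cross HS 1 (7.43) and F1 cross HS 3 (7.10). Its HS minus TN difference was 0.15 ± 0.09 (SE, adjusted p = 0.484, limma). By contrast, the 3 ARNTL probes agreed at r = 0.91 to 0.97 and the CRY1 probes at r = 0.82, so a statement on CRY2 rests on which probe is read.

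NR1D1 and NR1D2 are the receptors of the second loop. NR1D1 levels (lowest, median, highest) in TN were 7.27, 7.58 and 8.31 in Creole, 7.12, 7.51 and 7.74 in F1 cross, and 7.09, 7.64 and 8.04 in Large White. In HS they were 7.11, 7.47 and 8.26 in Creole, 7.41, 7.54 and 7.73 in F1 cross, and 7.09, 7.41 and 7.68 in Large White. The groups overlapped, and Creole pigs held the highest NR1D1 values at both temperatures. NR1D2 levels in TN were 10.70, 10.95 and 11.60 in Creole, 10.65, 10.95 and 11.11 in F1 cross, and 10.86, 11.05 and 11.69 in Large White. In HS they were 10.56, 11.11 and 11.74 in Creole, 10.75, 10.92 and 10.99 in F1 cross, and 10.83, 10.96 and 11.48 in Large White. F1 cross pigs of both temperatures were packed closely and held none of the high values. HS minus TN was -0.07 ± 0.11 (SE) for NR1D1 (95% interval -0.29 to 0.16, adjusted p = 0.852, limma) and -0.0085 ± 0.087 for NR1D2 (-0.19 to 0.17, adjusted p = 0.982). With 1 pig left out at a time the NR1D1 difference ranged from -0.11 to -0.03.

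**Figure D1:**
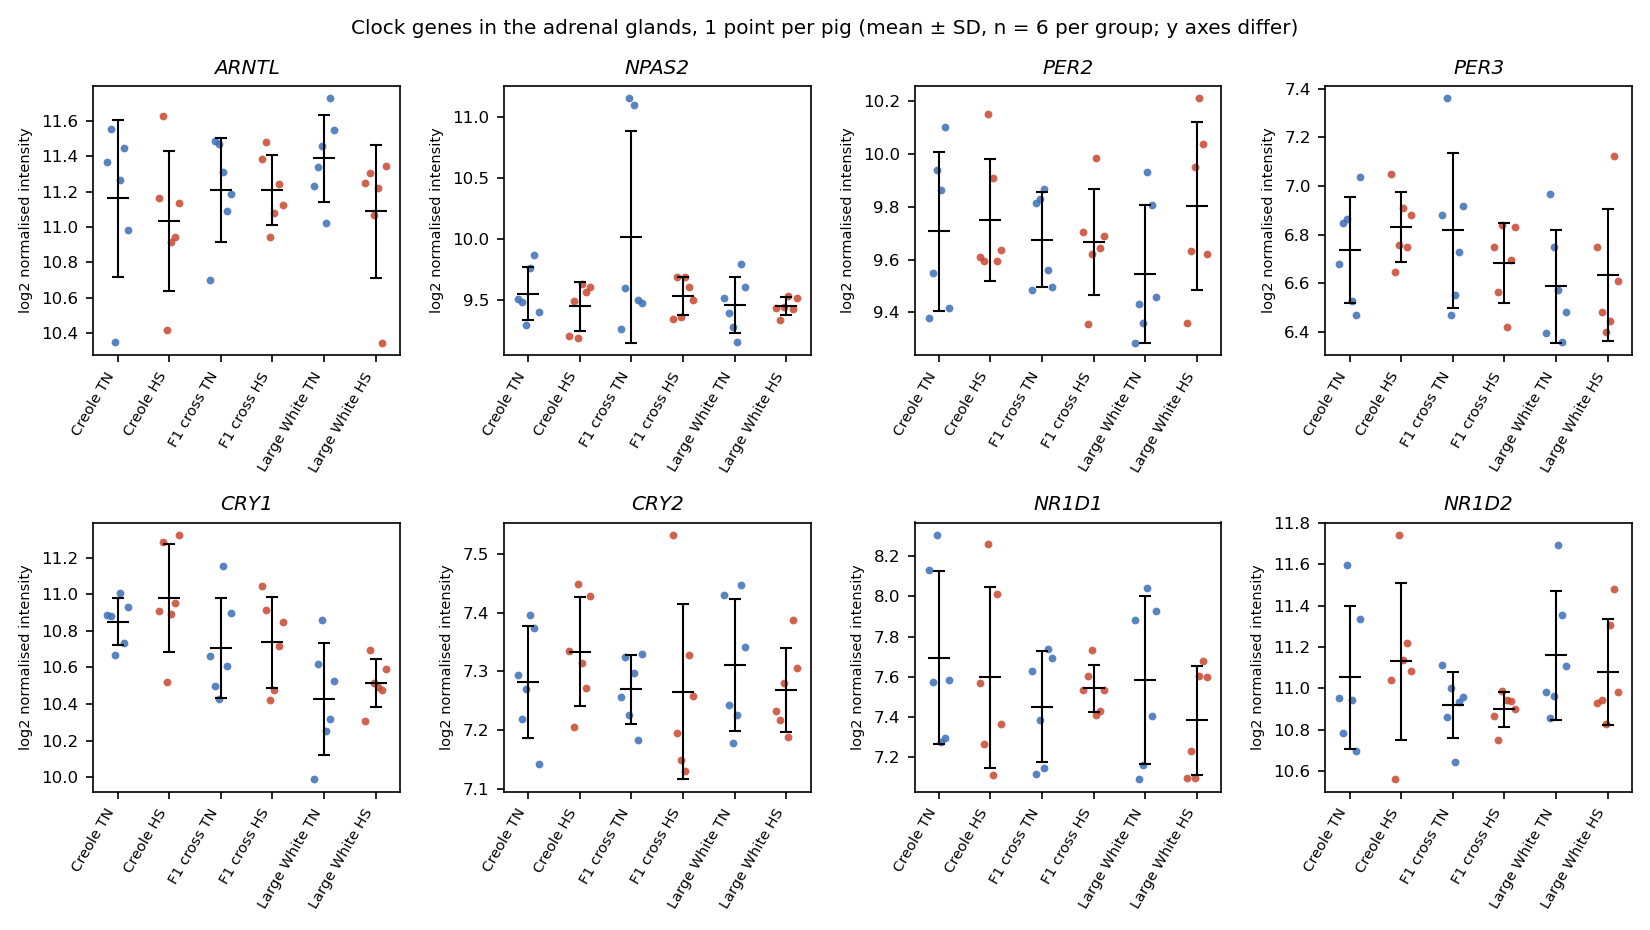
Log2 level (authors' normalized values, brightest probe) of the 8 measured clock genes in each of the 36 pigs, by breed and temperature group, with the mean and SD of the 6 pigs of each group. TN and HS overlap in every panel, CRY1 steps down from Creole to Large White, and 2 F1 cross TN pigs stand at 11.095 and 11.15 for NPAS2.

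Taken within each breed, 0 of the 8 genes passed in Creole, F1 cross or Large White, where 0%, 0% and 0.011% of all probes did. At an unadjusted p under 0.05 there was 1 gene in the F1 cross (NPAS2, above) and 0 in the others, while 2171, 5592 and 2852 of all 45348 probes were below that level in Creole, F1 cross and Large White (limma). The interaction of breed and temperature gave 0 of 8 genes and 0% of all probes past the threshold (F test in limma). Before adjustment, p was under 0.05 for 0 of the 8 genes and 1914 of all probes. With 6 pigs per group these comparisons were imprecise: the SE of a difference within a breed was 0.13 to 0.22 for 7 of the 8 genes and 0.06 for CRY2.

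Of the 8 measured members, 1 passed between Large White and Creole, where 11.5% of all probes did: CRY1, which was lower in Large White. Its lowest, median and highest levels over 12 pigs were 10.52, 10.90 and 11.33 in Creole, 10.42, 10.69 and 11.15 in F1 cross, and 9.99, 10.50 and 10.86 in Large White. The means were 10.92 ± 0.23, 10.72 ± 0.25 and 10.47 ± 0.23 (SD, n = 12). Creole was high, Large White low and the cross in between: 7 of 12 Large White pigs lay below every Creole pig, and 9 of 12 Creole pigs lay above every Large White pig. Large White minus Creole was -0.44 ± 0.09 (SE; 95% interval -0.63 to -0.25), a ratio of 0.735, with an adjusted p of 0.0013 (limma, Benjamini-Hochberg). By the F test of the 3 breeds the adjusted p was 0.00451 (limma).

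The dimmer CRY1 probe gave the same order, with means of 9.81 ± 0.25 in Creole, 9.70 ± 0.20 in F1 cross and 9.44 ± 0.28 in Large White (SD, n = 12). Its Large White minus Creole difference was -0.37 ± 0.10 (SE), a ratio of 0.776 (adjusted p = 0.0125, limma). On the brighter probe the difference was -0.42 among TN pigs and -0.47 among HS pigs. The cross lay 0.03 ± 0.08 (SE) above the mean of its parents, with a 95% interval from -0.13 to 0.19 (adjusted p = 0.944, limma). CRY1 passed in all 53 alternatives run for Large White minus Creole, with differences from -0.50 to -0.40 and adjusted p from 0.00046 to 0.0171 (limma).

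**Figure D2:**
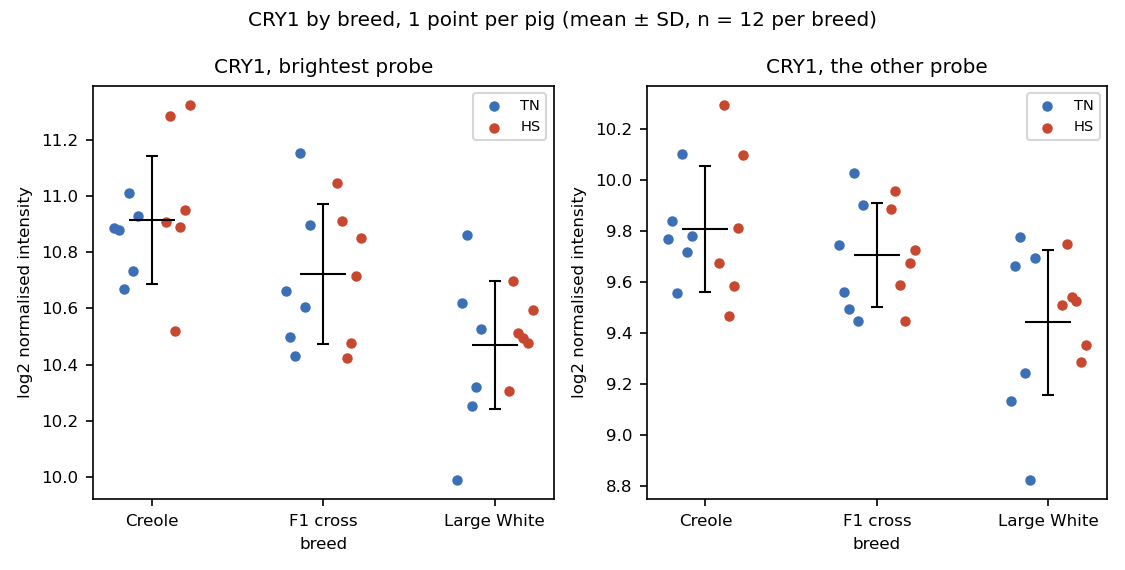
Log2 level of the brighter and the dimmer CRY1 probe in each pig by breed (12 pigs each), with the mean and SD. The means fall from Creole (10.92 and 9.81) through F1 cross (10.72 and 9.70) to Large White (10.47 and 9.44).

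The breed comparison was broad, and 1 of 8 is close to its background: 11.5% of all probes passed between Large White and Creole (5.98% higher and 5.5% lower in Large White), and 10.6% passed the F test. The other 7 genes did not pass. PER3 came nearest, at -0.17 ± 0.09 (SE; 95% interval -0.36 to 0.01, adjusted p = 0.245, limma), with means of 6.78 ± 0.18 in Creole, 6.75 ± 0.25 in F1 cross and 6.61 ± 0.24 in Large White (SD, n = 12). NR1D1 differed by -0.16 ± 0.14 (SE, adjusted p = 0.512, limma) and ARNTL by 0.14 ± 0.13 (adjusted p = 0.572), where the other ARNTL probes gave 0.21 and -0.00060. With 1 pig left out at a time, NR1D1 ranged from -0.21 to -0.10 and ARNTL from 0.06 to 0.22. PER2, NPAS2, CRY2 and NR1D2 differed by -0.05, -0.05, -0.02 and 0.03. Leaving out 1 pig at a time gave -0.1002 to -0.0149 for PER2, -0.0752 to -0.0098 for NPAS2 and -0.0339 to -0.0053 for CRY2.

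In a whole gland, fewer cells of a type and less RNA per cell cannot be told apart. Some markers on several cell type lists passed between Large White and Creole. Of all probes, 11.5% passed in this comparison (5.98% higher and 5.5% lower in Large White). For adipocytes, 4 of 5 markers fell in Large White (ADIPOQ by 1.62 and FABP4 by 1.33 on the log2 scale), and the mean level of the 5 was 8.66 to 9.91 in Creole pigs, 8.43 to 9.87 in F1 cross pigs and 8.28 to 8.99 in Large White pigs. For the medulla, 3 of 5 markers rose in Large White (CHGB by 0.53), with a mean level of 13.30 to 13.99 in Creole, 13.53 to 14.16 in F1 cross and 13.26 to 14.29 in Large White. Of the 9 cortex markers, 2 fell, HSD3B1 by 0.78 and STAR by 0.34, with a mean level of 16.01 to 16.25, 15.89 to 16.19 and 15.85 to 16.13 in the same order. Of the immune markers 1 of 4 rose (CD3D by 0.58), of the endothelial markers 1 of 4 rose (KDR by 0.68), and of the red blood cell markers 0 of 3 passed. The other CD3D and KDR probes did not pass. No defining marker of these lists was at background. Within groups, CRY1 followed the adipocyte level at r = 0.27 (rho = 0.28, permutation p = 0.123, adjusted over 32 relations 0.58, 36 pigs; r = 0.25 without the 2 pigs farthest from the median). The part of these cell types in the difference between breeds was not tested.

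**Figure D3:**
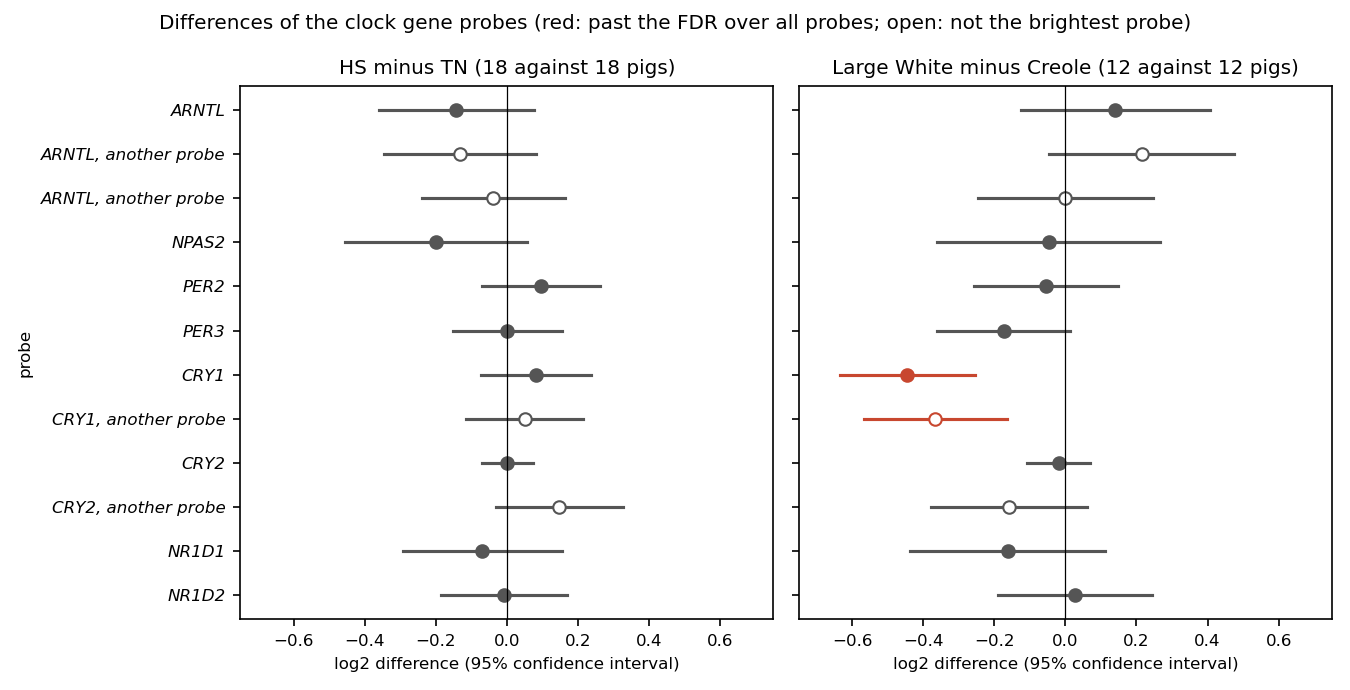
Log2 differences HS minus TN and Large White minus Creole for the 12 probes of the 8 genes, with 95% intervals from limma. Open symbols are probes that are not the brightest of their gene and red marks those past the threshold: both CRY1 probes between breeds, and none between temperatures.

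Set against the mean of both parents, the F1 cross gave 0 of 8 genes past the threshold, where 0.415% of all probes passed. Unadjusted p was under 0.05 for 2 of the 8 genes and for 5057 of the 45348 probes. NPAS2 was 0.30 ± 0.13 (SE) higher in the cross (unadjusted p = 0.0338, adjusted p = 0.394, limma), and 0.03 ± 0.07 without F1 cross TN 3 and 4. NR1D2 was -0.20 ± 0.09 (unadjusted p = 0.0407, adjusted p = 0.418, limma), with means of 11.09 ± 0.35 in Creole, 10.91 ± 0.12 in F1 cross and 11.12 ± 0.28 in Large White (SD, n = 12).

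In the order of the 6 group means, neighbours lay closer than 1 SD between pigs of a group for all 5 neighbouring pairs in 7 genes, CRY1 included, and for 4 of 5 in NPAS2, where F1 cross TN stood 0.46 above the next group. The means spanned 0.35 for ARNTL (Large White TN highest, Creole HS lowest), 0.26 for PER2, 0.24 for PER3, 0.07 for CRY2, 0.31 for NR1D1 and 0.26 for NR1D2. For CRY1 they spanned 0.55, with both Creole groups first, both F1 cross groups next and both Large White groups last.

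Levels in pigs of the same group differed more in most clock genes than in a typical probe. Only group means were taken out, so differences between slides are part of this spread. PER2, for example, read 9.36 to 9.62 on slide 2 and 9.63 to 10.15 on slide 3. The SD of log2 levels between pigs of a group, with its percentile among all 45348 probes in brackets, was 0.39 for NPAS2 (percentile 92.5), 0.35 for NR1D1 (89.6), 0.34 for ARNTL (88.6), 0.28 for NR1D2 (80.7), 0.25 for PER2 (76.4), 0.24 for CRY1 (73.8) and 0.23 for PER3 (71.2), around a median of 0.18 over all probes. The brighter CRY2 probe was at 0.10 (percentile 5.9) and the dimmer at 0.28 (81.3). From the lowest to the highest of the 36 pigs, levels differed 2.61-fold for ARNTL, 2.33-fold for NR1D1, 2.27-fold for NR1D2, 2.53-fold for CRY1, 1.90-fold for PER2, 2.001-fold for PER3 and 1.32-fold for CRY2. NPAS2 spanned 3.98-fold, and its SD was 0.18 without its 2 high pigs.

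The spread was shared between genes, with ARNTL on one side and its repressors NR1D1 and NR1D2 on the other. Correlations over the 36 pigs were computed for all 28 pairs of the 8 genes after the group means were taken out, with permutation of pigs within groups and Benjamini-Hochberg adjustment over the 28 pairs. By Pearson's r, 5 pairs passed, 1 positive and 4 negative, and 4 passed by Spearman's rho.

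ARNTL and NR1D2 ran opposite to each other (r = -0.76, permutation p = 3e-05, adjusted p = 0.00084; rho = -0.59, permutation p = 0.00068, adjusted p = 0.0095). Without the 2 pigs farthest from the ARNTL median r was -0.67, still past the threshold, and leaving out 1 pig at a time gave -0.81 to -0.71. The relation was negative among TN pigs (-0.67), HS pigs (-0.86), Creole (-0.97), F1 cross (-0.63) and Large White pigs (-0.49), and passed alone in HS and in Creole. The other ARNTL probes gave -0.72 and -0.69 with NR1D2. Pigs at the ends show it directly. Creole TN 3 was 0.81 below its group mean in ARNTL and 0.54 above it in NR1D2, and Creole HS 3 was 0.62 below and 0.61 above, whereas Creole HS 2 was 0.59 above in ARNTL and 0.57 below in NR1D2.

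NR1D1 and NR1D2 rose and fell together (r = 0.67, permutation p = 0.00028, adjusted p = 0.0039; rho = 0.60, permutation p = 0.001, adjusted p = 0.0095). ARNTL and NR1D1 ran opposite (r = -0.55, permutation p = 0.0026, adjusted p = 0.0185), though by rank the pair did not pass (rho = -0.42, permutation p = 0.022, adjusted p = 0.123). CRY1 and NR1D2 also ran opposite (r = -0.47, permutation p = 0.0062, adjusted p = 0.0346; rho = -0.46, permutation p = 0.0062, adjusted p = 0.0437). These 3 relations rested in part on the pigs at the ends: without the 2 pigs farthest from the median of the first gene r was 0.52, -0.44 and -0.42, and none of the 3 passed. The signs were the same in both temperature groups and in all 3 breeds.

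The fifth pair was NPAS2 and PER3. Since 2 pigs form a group of their own in NPAS2, the relations of NPAS2 are given for the other 34. There r was -0.41 for NPAS2 with PER3, which did not pass, and 0.50 for ARNTL with NPAS2, which passed. In the same 34 pigs ARNTL with CRY1 passed (0.45) and CRY1 with NR1D2 did not (-0.44), while the 3 pairs among ARNTL, NR1D1 and NR1D2 passed as before, so that 5 pairs passed in either set but not the same 5. With all 36 pigs, the 23 pairs that did not pass had r from -0.41 to 0.43, among them ARNTL with CRY1 (0.40, permutation p = 0.0145, adjusted p = 0.058; rho = 0.31). ARNTL with CRY1 and ARNTL with NPAS2 also passed without Large White HS 1, without F1 cross TN 2 and without Creole TN 5. CRY2 took part in none of these pairs by its brighter probe.

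**Figure D4:**
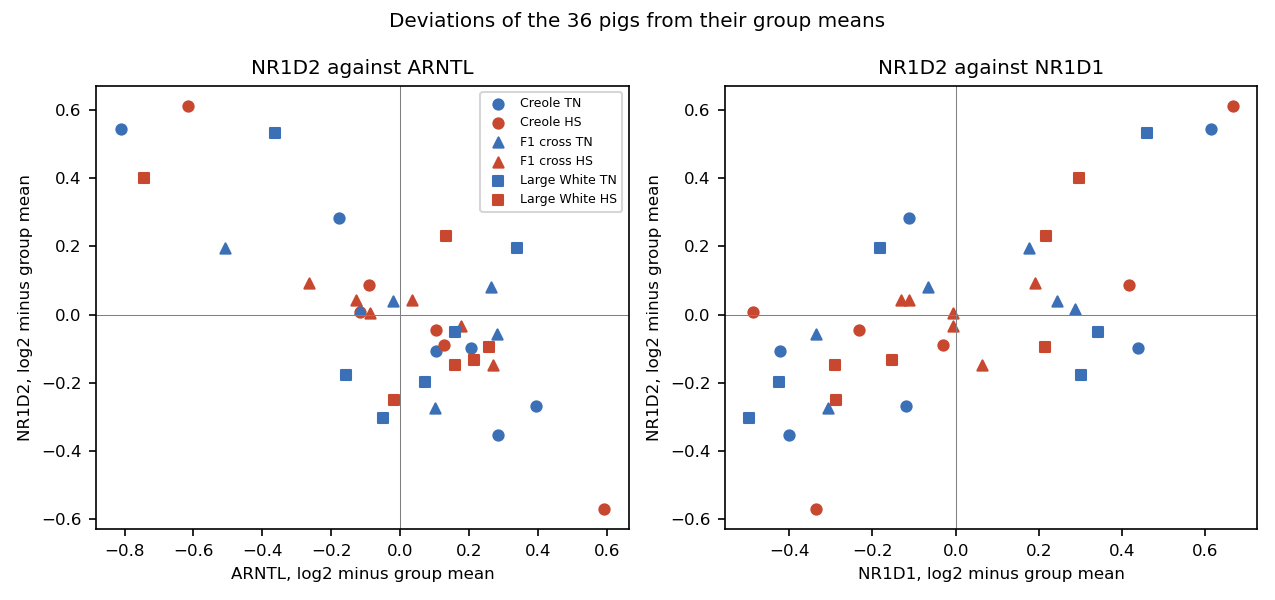
NR1D2 against ARNTL and against NR1D1 in the 36 pigs, each as the log2 deviation from the mean of the pig's group. NR1D2 falls as ARNTL rises (r = -0.76) and rises with NR1D1 (r = 0.67).

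**Figure D5:**
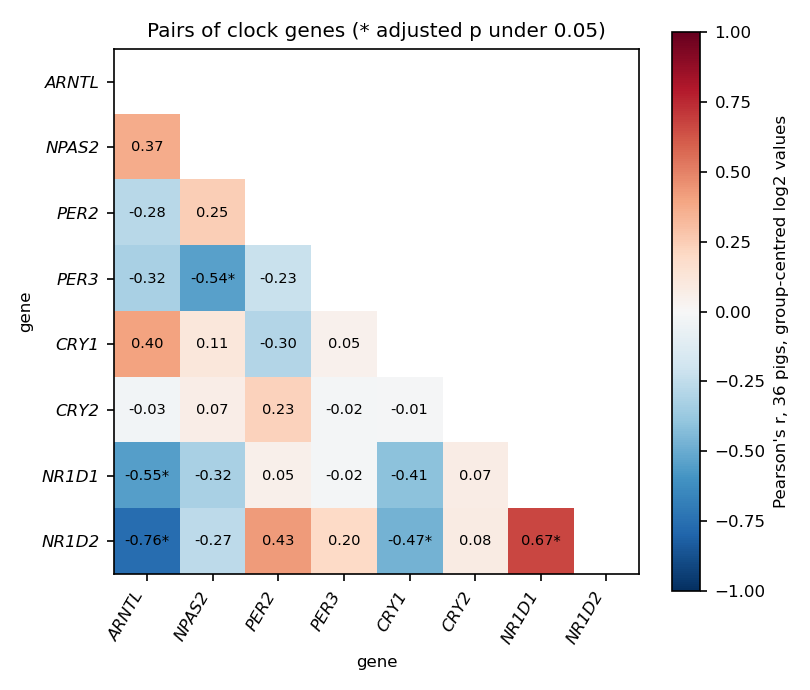
Pearson's r between group-centred log2 levels for all 28 pairs of the 8 genes over 36 pigs, with a star where the permutation p adjusted over the 28 pairs passed. The stars are ARNTL with NR1D1 and NR1D2, NR1D1 with NR1D2, CRY1 with NR1D2 and, with its 2 high pigs included, NPAS2 with PER3.

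Tissue makeup and array brightness were set beside the same deviations. Over 32 relations (8 genes with the cortex, medulla and adipocyte marker levels and with the median raw intensity of the array), 0 passed after adjustment. The lowest adjusted p was 0.064, shared by the median raw intensity with PER2 (r = 0.51, rho = 0.36, permutation p = 0.0022) and with PER3 (r = -0.46, rho = -0.49, permutation p = 0.004). ARNTL followed the cortex level at r = 0.07, the medulla level at 0.22, the adipocyte level at -0.14 and the array brightness at -0.31. NR1D2 followed the array brightness at r = 0.36 (rho = 0.31, permutation p = 0.0685, adjusted p = 0.58), the opposite sign to ARNTL, and the part of brightness in their relation was not tested.

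Among 10001 other named genes, NR1D2 had the most negative correlation with ARNTL, and NR1D1 ranked 9995 of 10001. The next most negative were ABO (-0.62), DENND4B (-0.60), SERPINC1 (-0.56) and CA12 (-0.55). At the other end stood SLC35C1 (0.67), NPC1 (0.64), MRAP (0.61), ANGPTL6 (0.60) and HOXB13 (0.60), of which MRAP is the partner that carries the ACTH receptor to the cell surface and NPC1 moves cholesterol out of lysosomes. The genes most like NR1D1 were FOXR1 (0.70), NR1D2 (0.67), CHKA (0.65), KIF13B (0.65) and GPD1 (0.62), and the least like it were MRPS24 (-0.62), NAB1 (-0.61), RAB5B (-0.61), ELSPBP1 (-0.58) and FRMPD1 (-0.57). These values describe 36 pigs and carry no test.

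Other genes of the clock pathway were counted in the same fits. Of 27 on a list by function, 18 were measured, and between HS and TN 0 of 18 passed and 3 had an unadjusted p under 0.05 (median log2 difference -0.02), a level that 6121 of all 45348 probes reached. BHLHE40, a repressor of the ARNTL and CLOCK pair, came nearest, at -0.38 ± 0.10 (SE, adjusted p = 0.0615, limma). PER1, the third PER gene, differed by -0.14 ± 0.10 (adjusted p = 0.582, limma).

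Glucocorticoids feed into the clock, and genes they induce were followed as a separate list. Of 5 measured genes, 1 passed between HS and TN, against 0.911% of all probes (0.501% lower in HS): DUSP1, a phosphatase that shuts off MAP kinases, fell by 0.52 on the log2 scale in HS (SE 0.13, adjusted p = 0.0417, limma). SGK1, a kinase, differed by -0.57 ± 0.17 on its brightest probe (adjusted p = 0.0837, limma) and by -0.62 ± 0.13 on another (adjusted p = 0.0146). The other 3, FKBP5, KLF9 and ZBTB16, did not pass, and the estimates of all 5 genes were below 0, with a median of -0.41. CIRBP, an RNA-binding protein known for its response to cold that also acts on clock transcripts, differed by 0.18 ± 0.08 (adjusted p = 0.306, limma) on its brightest probe and by -0.0053 on another, and RBM3 had no named probe. Between HS and TN the cell type lists gave 1 gene past the threshold (0.911% of all probes), the cortex factor NR5A1, which fell by 0.25 (adjusted p = 0.0253, limma). The mean level of the medulla markers was 13.88 ± 0.26 in TN and 13.70 ± 0.23 in HS (SD, n = 18), with 0 of 5 past the threshold.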

How the data were processed

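RNA from adrenal glands of 36 pigs was measured on 1-colour Agilent arrays, 1 per pig. The authors extracted the spots with Agilent Feature Extraction 10.10.1.1 (submitters' processing notes), and their deposited scanner files hold the raw intensity of each spot. The authors then quantile normalized the median pixel intensity and took log2; their deposited table of log2 values (45348 of 60305 probes, 93 values missing) was used here and held 0 columns of other samples. Groups came from the labels.

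Probes were named by the gene name in the scanner files, otherwise by RefSeq transcript (Sscrofa11.1). The members, gene lists and tests were chosen with earlier results of these data known. Genes named are all members, listed pathway, glucocorticoid, temperature-linked and marker genes past the threshold or needed for a member's result, and the 5 genes at each end of the likeness to ARNTL and NR1D1. Other genes of these lists were named after their values were seen. As an exception to this rule, 1 pathway gene passed the threshold in Large White minus Creole and is not reported here, so the text gives the pathway list for HS minus TN only.

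All 45348 probes were fitted with limma 3.58.1 (lmFit, eBayes) in R 4.3.3, with breed and temperature, or a mean per group, and Benjamini-Hochberg adjustment at 0.05. The study's random effects (pen, day of slaughter, parents) cannot be tied to arrays from the labels and were left out. Correlations used group-centred values and 100000 permutations within groups (Python 3.11.15, scipy 1.17.1, numpy 2.4.6), where the smallest p they can give is 1e-05. The procedure was tested on simulated data. The number of arrays limits the precision. Alternatives were other normalizations of the scanner files (median centring, 75th percentile scaling of the processed signal, normexp with offset 50), filters, slide and position blocks, each slide or pig left out, array weights and other choices of probe.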

Additional observations from a re-analysis of the deposited data

Results flagged for a closer look

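ARNTL in Large White HS held 1 pig apart from the other 5. Large White HS 5 was at 10.34 and the nearest pig of its group at 11.07, a gap of 0.724 of the group's whole range, above the critical value of Dixon's test for 6 samples. This was the only flag among the 48 groups looked at (8 genes in 6 groups), and chance alone flags about 1 group in 20. The same pig lay nearer TN than HS over the probes that best separate the temperatures. Its NR1D1 and NR1D2 levels were 0.30 and 0.40 above the mean of its group, and r between ARNTL and NR1D2 was -0.73 without it.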

How the results depend on the processing

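No count of clock genes past the threshold changed in the 288 results with 1 pig left out or the 137 under other settings. The count of correlated pairs (5 with all pigs) was 3 without centring on groups, 8 with centring on group and slide, 0 in TN pigs, 1 in HS pigs, 1 in Creole, 0 in F1 cross, 0 in Large White and 1 without the 2 farthest pigs, and the sets of 12 or 18 pigs are smaller by construction. With 1 pig left out it ranged from 3 (without Creole TN 3, Creole HS 3 or F1 cross TN 4) to 10 (without F1 cross TN 2), and was 9 without Creole TN 5 and 8 without Large White HS 1. ARNTL with NR1D2 passed in each of these 1-pig sets.

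For HS minus TN, NPAS2 was 0.0042 without slide 4, which holds F1 cross TN 3 and 4, and -0.02 without these 2 pigs alone. Of the other differences that turned sign, the largest were -0.1078 (PER3, HS minus TN) and -0.0987 (NR1D2, Large White minus Creole), both without slide 4. None of those that turned sign was past the threshold, and the cause was not tested. In HS minus TN, PER3 was -0.0018 with normexp, -0.0040 with median centring, -2.7e-05 with position as a block, -0.0055 and -0.1078 without slides 1 and 4, -0.0322 without F1 cross TN 3 and 4, and -0.0412 with array weights. CRY2 was -0.0112 and -0.0136 without slides 1 and 5 and -0.0073 with weights. NR1D2 was 0.0024 with normexp, 0.0168 with position as a block, and 0.0093, 0.0445 and 0.0109 without slides 2, 3 and 5. For Large White minus Creole, NPAS2 was 0.0112 with position as a block and CRY2 0.0206 without slide 3. NR1D2 was -0.0061 with the 75th percentile, -0.0454 and -0.0987 without slides 2 and 4, and -0.0205 with weights. With 1 pig left out, HS minus TN ranged from -0.0301 to 0.04 for PER3, -0.0148 to 0.0117 for CRY2 and -0.0494 to 0.0272 for NR1D2, and Large White minus Creole from -0.0256 to 0.0892 for NR1D2.

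The SD between pigs was 0.18 for NPAS2 without F1 cross TN 3 and 4, and 0.15 for CRY2 as the mean of its probes. Leaving out these 2 pigs, and spreads from the scanner files or from the mean of all probes, were chosen after seeing the data. No analysis paired by litter was possible because the labels do not tie litters to arrays.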
